A study of Rattus norvegicus with 4 samples.

Results

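The cholesterol synthesis genes described here are 9 in number by the rule that chose them: Hmgcs1, Idi1, Fdps, Fdft1, Sqle, Lss, Cyp51, Dhcr7 and Insig1, 8 enzymes and 1 regulator. The rule took every probe set (the group of short probes on an array that measures 1 transcript) whose platform annotation gave one of these symbols alone, and a gene took its value from the brightest. It found 12 probe sets for 8 of the 9 genes, out of 14217 genes in all. Hmgcs1 was not analysed here. All 8 passed a filter on low signal that 9489 genes passed, a mean intensity over the 4 arrays above 62.75.

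The arrays held RNA from the CA3 area of the hippocampus of Sprague-Dawley rats, removed 24 h after an injection into the hippocampus. There were 4 groups with 1 array each: PBS, the vehicle; KA, kainic acid (kainate), an excitotoxin that activates glutamate receptors; KA+NAP, kainic acid with the neuroprotective peptide NAP, whose concentration the design text writes as 10-13M; and NAP alone. The labels give no age, sex or genotype beyond the strain, do not say whether an array held 1 animal or a pool, and in one place speak of hippocampi rather than CA3. The study addressed which transcripts differed after the toxin and with the peptide. With 1 array per group no value below carries a replicate error and no test between groups was possible.

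Cholesterol in the brain is made locally, because plasma lipoproteins do not cross the blood-brain barrier. In the adult it is made largely by astrocytes and oligodendrocytes, and myelin holds much of it. The pathway builds isoprenoid units from acetyl-CoA through mevalonate, joins them into squalene, closes the rings to lanosterol and trims lanosterol to cholesterol. Its genes are driven together by the transcription factor SREBP-2 (Srebf2), which is held in the endoplasmic reticulum by Scap and the Insig proteins while sterols are plentiful. Neurons remove cholesterol by turning it into 24S-hydroxycholesterol with Cyp46a1.

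The members' promoters are shown because SREBP-2 acts on such genes together with NF-Y, a factor that binds the CCAAT box. RefSeq promoter sequences of build GRCr8 were found for 6 of the 8 measured genes; Fdft1 and Sqle were not among them. The 250 bases before the annotated start were searched on both strands for CCAAT, for the GC box GGGCGG, for the E-box CACGTG and for the sterol regulatory element written as TCACNCCAC, and no match of one kind overlapped a match of another. CCAAT was found in 4 of 6 (Idi1, Fdps, Lss and Insig1), against 34% of all 33469 promoter windows of that length. GGGCGG was found in 5 of 6 (all but Idi1), against 30.5%. The windows of these 5 genes held from 56.8% (Fdps) to 72.8% (Insig1) G or C, above the median of 51.2% over all windows. The share over all windows is therefore not one of like windows, and the part of this in the count was not tested. CACGTG was found in Insig1 alone, against 5.59% of all windows. TCACNCCAC was found in 0 of 6, against 0.974%, which says only that these letters are not in these windows. Below are Idi1, whose intensity was highest on the KA array in both of its probe sets, Insig1, which was nearly equal on the KA and PBS arrays, and Cyp51, which was highest on the KA+NAP array; capitals mark CCAAT or its reverse complement ATTGG. They lie at chr17:66547525-66547774 (Idi1, minus strand), chr4:8057770-8058019 (Insig1, minus strand) and chr4:30991443-30991692 (Cyp51, plus strand), each directly upstream of the gene's annotated start.
Idi1: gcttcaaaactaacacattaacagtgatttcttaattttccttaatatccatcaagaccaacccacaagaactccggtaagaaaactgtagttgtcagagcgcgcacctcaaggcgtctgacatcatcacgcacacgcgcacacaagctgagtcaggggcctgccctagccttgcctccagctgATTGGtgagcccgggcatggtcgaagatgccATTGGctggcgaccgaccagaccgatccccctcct
Insig1: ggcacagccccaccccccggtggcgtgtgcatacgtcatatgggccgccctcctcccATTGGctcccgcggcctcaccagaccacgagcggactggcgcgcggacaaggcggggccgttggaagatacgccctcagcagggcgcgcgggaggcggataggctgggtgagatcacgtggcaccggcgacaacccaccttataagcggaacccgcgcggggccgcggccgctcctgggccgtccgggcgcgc
Cyp51: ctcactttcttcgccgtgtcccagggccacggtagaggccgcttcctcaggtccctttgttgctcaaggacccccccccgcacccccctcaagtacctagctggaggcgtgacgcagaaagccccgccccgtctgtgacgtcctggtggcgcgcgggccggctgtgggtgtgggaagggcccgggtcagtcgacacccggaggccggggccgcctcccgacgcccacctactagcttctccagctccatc
Idi1 carries CCAAT on the strand opposite to the printed one, and so reads ATTGG above, 66 to 62 and 35 to 31 bases before the start. Insig1 carries 1 such match 193 to 189 bases before it, and Cyp51 carries CCAAT on neither strand in this window. A match is a description of the letters and not evidence of a bound factor.

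Values are MAS5 signal intensities, which the authors computed and scaled so that all arrays had the same trimmed mean. Differences are between log2(intensity + 10) on 2 arrays, so that a value of 1 is 2-fold, and those of dim genes are understated. The ratio of 3′ to 5′ signal of the beta-actin control ran from 7.92 on the NAP array to 15.5 on the KA+NAP array, and that of GAPDH from 1.31 on the KA array to 1.56 on the KA+NAP array. For hexokinase it ran from 5.5 on the KA+NAP array to 8 on the PBS array. The CA3 markers Grik4, Bok, Neurod6, Cpne4, Coch and Elavl2 all passed the filter, with Neurod6 at 3379 and Bok at 1084 on the PBS array.

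The 8 genes were compared first over the 4 arrays. By the brightest probe set, the highest array exceeded the lowest by between 1.18-fold (Lss) and 1.66-fold (Sqle), and none reached 2-fold, while 14.6% of all genes past the filter did. Among 8 genes, a count of 0 is near that share. The median of this range over the 8 genes was 0.37 on the log2 scale, against 0.51 over all genes. Sqle at 0.73 and Fdft1 at 0.67 were above that median of all genes. 5 of the 8 (Idi1, Fdps, Sqle, Dhcr7 and Insig1) were highest on the KA array, where 22.1% of all genes were highest, and none was lowest there, where 23.9% of all genes were lowest. 2 (Lss and Cyp51) were highest on the KA+NAP array, where 32.3% of all genes were, 1 (Fdft1) on the PBS array, where 23.9% were, and 0 on the NAP array, where 21.7% were. The lowest array was KA+NAP for Idi1, Fdft1 and Insig1 (25.8% of all genes), NAP for Fdps, Sqle and Dhcr7 (19.8%), and PBS for Lss and Cyp51 (30.5%). Other probe sets gave other places. The second of Lss had a log2 range of 0.72 and was highest on KA and lowest on KA+NAP, so the place of Lss here rests on 1 probe set. Those of Idi1 and Cyp51 were lowest on NAP.

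**Figure D1:**
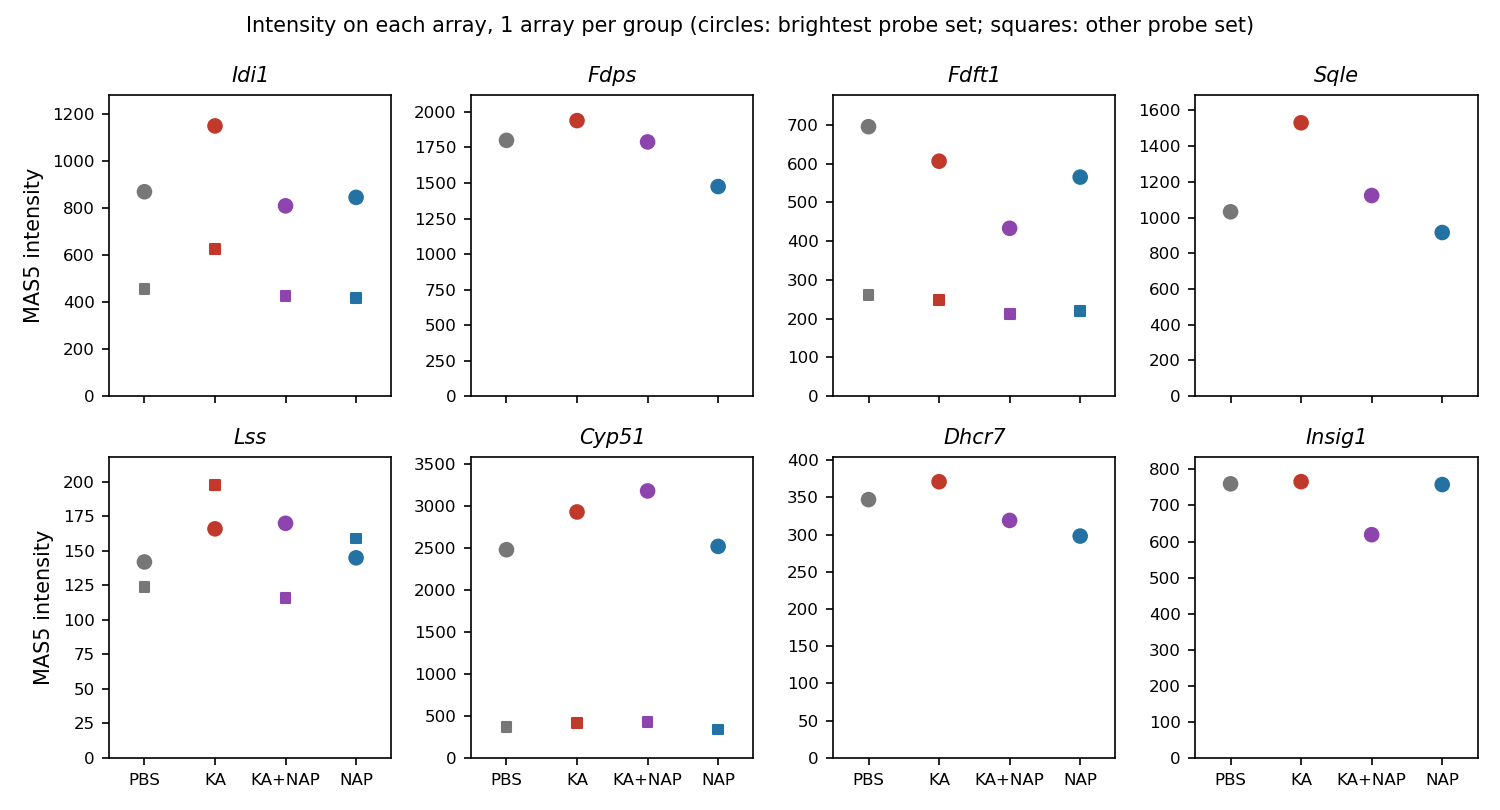
Intensity (MAS5 signal, linear axis from 0) of each gene on the PBS, KA, KA+NAP and NAP arrays, 1 array per group, with circles for the brightest probe set and squares for the other one where a gene has 2. Idi1 and Sqle stand highest on the KA array, at 1150 and 1530, while the 2 probe sets of Lss differ in order.

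The isoprenoid steps are represented by Idi1 and Fdps. Idi1, isopentenyl-diphosphate delta-isomerase, interconverts the pair of small building blocks of all isoprenoids. Its intensity was 870 with PBS, 1150 with KA, 810 with KA+NAP and 846 with NAP, so the KA array stood above the other arrays, which lay close together. A dimmer probe set for the same gene read 457, 627, 427 and 417 in that order of arrays and also had KA highest. Fdps, farnesyl diphosphate synthase, makes the farnesyl unit from which sterols, prenyl anchors and ubiquinone side chains branch. It was at 1800 with PBS, 1939 with KA, 1789 with KA+NAP and 1475 with NAP, with the NAP array lowest.

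The squalene steps are represented by Fdft1, Sqle and Lss. Fdft1, squalene synthase, commits farnesyl units to sterols. It read 695 with PBS, 606 with KA, 433 with KA+NAP and 565 with NAP, the only one of the 8 with its highest value on the PBS array. Its dimmer probe set read 260, 248, 211 and 220 and gave the same order of arrays over a narrower range. Sqle, squalene epoxidase, catalyses the first oxygen-requiring and a rate-limiting step. Its intensity was 1032 with PBS, 1530 with KA, 1123 with KA+NAP and 916 with NAP, and the range of 0.73 on the log2 scale was the widest of the 8. Lss, lanosterol synthase, closes the sterol rings and was the dimmest of the 8 probe sets. It read 142 with PBS, 166 with KA, 170 with KA+NAP and 145 with NAP. A second Lss probe set, almost as bright, read 124, 198, 116 and 159. The 2 probe sets disagreed on whether KA+NAP was the highest or the lowest array, so no order of the arrays is given for Lss.

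The sterol steps are represented by Cyp51 and Dhcr7. Cyp51, lanosterol 14-alpha-demethylase, takes the first step from lanosterol. Its intensity was 2475 with PBS, 2924 with KA, 3174 with KA+NAP and 2515 with NAP, so that both arrays with kainic acid stood above both without. The name of this probe set ends in _s_at, Affymetrix's mark for probes that can match more than 1 transcript. The other Cyp51 probe set read 369, 416, 426 and 339 and had the same 2 arrays on top. Dhcr7, 7-dehydrocholesterol reductase, makes cholesterol in the last step of one branch. It was at 347 with PBS, 371 with KA, 319 with KA+NAP and 298 with NAP.

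Insig1 is not an enzyme but the sterol sensor's anchor: it retains Scap and SREBP-2 in the endoplasmic reticulum and is itself a target of SREBP-2. It read 760 with PBS, 766 with KA, 619 with KA+NAP and 758 with NAP. The PBS, KA and NAP arrays lay within 8 intensity units, and KA+NAP stood below them.

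KA minus PBS describes the toxin alone. The 8 genes had a median log2 difference of 0.16, against 0.02 over all genes, and 7 of 8 were above 0, where 52.2% of all genes were. None reached 2-fold in either direction, whereas 4.91% of all genes reached it upwards and 2.39% downwards. Sqle had the highest difference at 0.56 (1.48-fold), above 86.9% of all genes. Idi1 followed at 0.40 (1.32-fold), Cyp51 at 0.24, Lss at 0.21 and Fdps at 0.11, and Dhcr7 and Insig1 were at 0.09 and 0.01. Fdft1 alone was below 0, at −0.19. All of these lay inside the central 95% of all genes, from −0.99 to 1.37. With the NAP array as the control in place of PBS all 8 were above 0, Fdft1 then at 0.10. With arrays centred on their median 6 of 8 were, Insig1 then at −0.05. The summed intensity of the 10 astrocyte markers was 39441 with PBS and 32313 with KA, that of the 9 oligodendrocyte markers 27702 and 25707, and that of the 10 neuron markers 41403 and 31040. The astrocyte sum hides differences in both directions. Of its 10 genes 2 were above 0, Gfap at 0.50 (5744 with PBS and 8147 with KA) and Aqp4 at 0.06. At least 2-fold lower were 2, Gjb6 at −2.78 (956 and 131) and Aldoc at −1.07. In bulk tissue, fewer cells of a type and less RNA per cell cannot be told apart, and the part of these shifts in the values of the 8 genes was not tested.

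KA+NAP minus NAP describes the toxin in the presence of the peptide, on a pair of arrays separate from the first. The median of the 8 genes was 0.16, against 0.03 over all genes, with 5 of 8 above 0, where 52.3% of all genes were, and none at 2-fold, which 5.66% of all genes reached upwards and 2.41% downwards. Cyp51 was at 0.33, Sqle at 0.29, Fdps at 0.28, Lss at 0.22 and Dhcr7 at 0.10, all above 0 here as in KA minus PBS. The second Lss probe set was at −0.42. Fdft1 at −0.38 was below 0 in both comparisons, and its other probe set was nearer 0, at −0.06 here and −0.07 in KA minus PBS. Idi1 was at −0.06, where it had been at 0.40 without the peptide, and Insig1 at −0.29 against 0.01. The difference between the 2 effects, the second less the first, was −0.46 for Idi1, −0.30 for Insig1 and −0.27 for Sqle, and between −0.18 and 0.17 for the rest. Over all genes this quantity had a central 95% from −0.89 to 0.91, and 1.77% of genes were at least 2-fold above 0 and 1.75% at least 2-fold below, which none of the 8 was. The second Lss probe set gave −1.06 for it, where the brightest gave 0.00. In KA+NAP minus NAP the medians of the markers were −0.80 for CA3 pyramidal neurons, −0.45 for astrocytes, −0.38 for neurons and 0.08 for oligodendrocytes. They were −0.89 for the meningeal and fibroblast list, 0.50 for microglia and macrophages and 1.59 for blood, with Ttr at −2.10. Of the blood markers past the filter, Hbb was at 0.11, S100a8 at 1.59 and S100a9 at 2.33. What these markers contribute to the 8 genes was not tested.

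**Figure D2:**
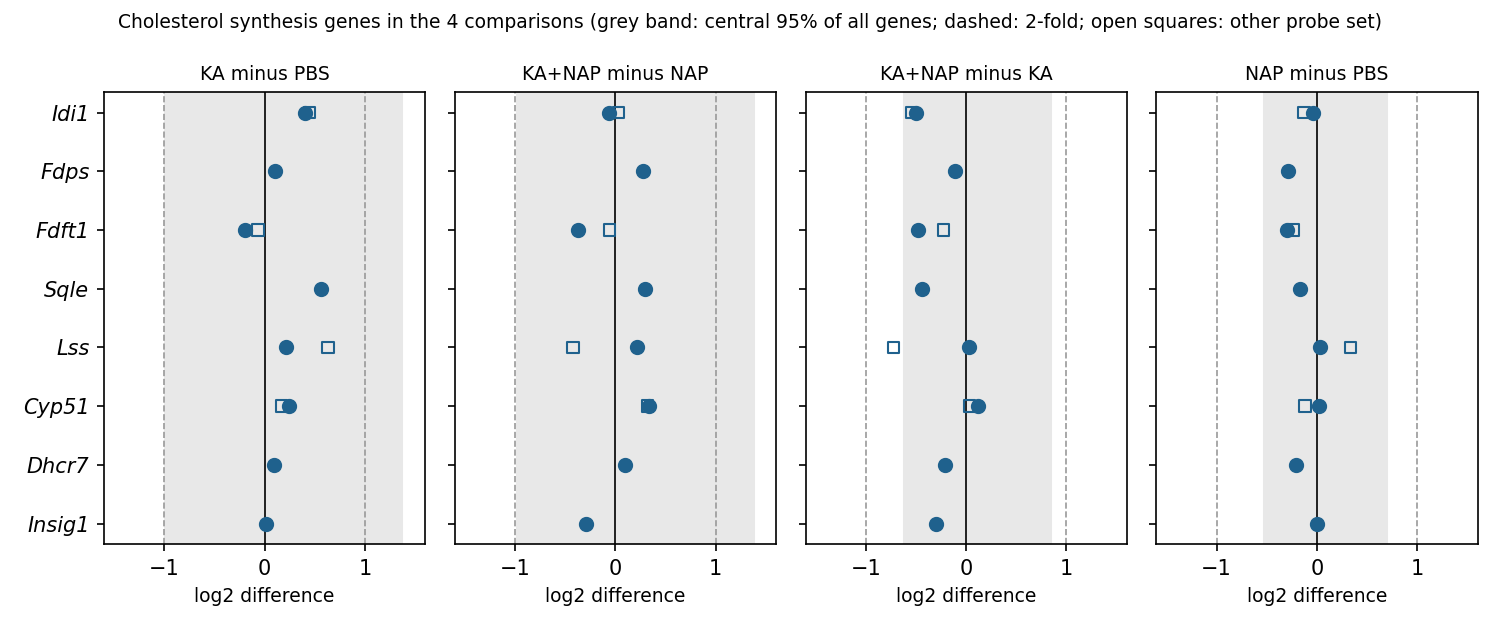
Log2 differences of the 8 genes in the 4 comparisons, with filled circles for the brightest probe set and open squares for the other one; the grey band is the central 95% of all 9489 genes and dashed lines mark 2-fold. All filled circles lie inside the band, and the Lss square at −0.72 in KA+NAP minus KA lies outside it.

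The peptide in injured tissue is described by KA+NAP minus KA. This difference shares the KA array with KA minus PBS, so a high KA value enters both with opposite sign. The median of the 8 genes was −0.26, against 0.03 over all genes, and 2 of 8 were above 0, where 53.8% of all genes were. None was at 2-fold, which 1.52% of all genes reached upwards and 0.601% downwards. Idi1 was lowest at −0.50 (0.707-fold), and its other probe set was at −0.54. Fdft1 was at −0.48 with the other probe set at −0.22, and Sqle at −0.44. Only 4.43% of all genes lay below Idi1, 4.98% below Fdft1 and 6% below Sqle, and all were inside the central 95%, from −0.62 to 0.85. Insig1 was at −0.30, Dhcr7 at −0.21 and Fdps at −0.12. Cyp51 was at 0.12 and Lss at 0.03, the latter at −0.72 in its second probe set. Beside these values, 9 of 9 microglia and macrophage markers past the filter were above 0 in the same comparison, with a median of 0.99, and 5 of 6 CA3 pyramidal neuron markers were below 0, with a median of −0.37. Their part in the values of the 8 genes was not tested.

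The peptide without the toxin is described by NAP minus PBS. The median of the 8 genes was −0.11, against 0.02 over all genes, and 2 of 8 were above 0, where 54.0% of all genes were. None was at 2-fold, which 1.05% of all genes reached upwards and 0.242% downwards. Fdft1 was at −0.29, Fdps at −0.29, Dhcr7 at −0.21 and Sqle at −0.17. Idi1 and Insig1 were at −0.04 and −0.0038, and Lss and Cyp51 at 0.03 and 0.02. The central 95% of all genes ran from −0.53 to 0.70. Arrays centred on their median put 0 of 8 above 0 here. In the same comparison the marker medians were 1.18 for the meningeal and fibroblast list (4 of its 6 genes were past 2-fold upwards), 1.58 for blood, 0.61 for microglia and macrophages and 0.36 for endothelium. Of the blood markers past the filter, Hbb was at 6.58 (5 with PBS and 1430 with NAP), S100a9 at 1.58 and S100a8 at 0.94. The part of all these markers in the values of the 8 genes was not tested.

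Probe sets of one gene give a scale for these sizes. They are read on the same arrays, so this scale does not measure variation between animals, dissections or replicate arrays. Over 2080 genes that had more than 1 probe set past the filter, the 2 brightest differed by a median of 0.29 in KA minus PBS, 0.26 in KA+NAP minus NAP, 0.22 in KA+NAP minus KA and 0.22 in NAP minus PBS. In KA minus PBS, 2 of 8 genes (Idi1 and Sqle) were farther from 0 than that gap, against 50.9% of all genes. In KA+NAP minus NAP, 5 of 8 (Fdps, Fdft1, Sqle, Cyp51 and Insig1) were, against 56.6%. In KA+NAP minus KA, 4 of 8 (Idi1, Fdft1, Sqle and Insig1) were, against 45.4%, and in NAP minus PBS 2 of 8 (Fdps and Fdft1), against 36.5%. These counts rest on the brightest probe sets. The other Fdft1 probe set, at −0.06 in KA+NAP minus NAP, was nearer 0 than the gap. The second Lss probe set, at 0.63, −0.42, −0.72 and 0.33 in the order above, was farther from 0 than the gap in all 4.

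Further genes of the pathway were read from a list of 16 genes set under cholesterol synthesis, of which 13 had a named probe set and 12 passed the filter. The list includes Ggps1, a gene of the isoprenoid branch that is counted again in that list below. In KA minus PBS these 12 had a median of −0.14 with 5 above 0, in KA+NAP minus NAP −0.05 with 5, in KA+NAP minus KA −0.11 with 5, and in NAP minus PBS −0.15 with 5, and none was at 2-fold in any of the 4. Of all genes, 52.2%, 52.3%, 53.8% and 54.0% were above 0 in that order of comparisons. These shares, and those at 2-fold given above for each comparison, also stand beside the counts of the lists that follow. The highest in KA minus PBS were Msmo1, the C4-methylsterol oxidase, at 0.58 (2914 with PBS, 4360 with KA, 3918 with KA+NAP and 3060 with NAP) and Hsd17b7, a 3-ketosteroid reductase, at 0.53 (295, 430, 307 and 329). The dimmer Hsd17b7 probe set was at 0.25. The lowest were Mvk, mevalonate kinase, at −0.64 (209, 131, 144 and 161) and Sc5d, the lathosterol oxidase, at −0.60 (1073, 704, 1026 and 774). The Sc5d probe sets disagreed: the other 2 were at 0.54 and −0.12 in KA minus PBS, −0.21 and −0.11 in KA+NAP minus NAP, −0.49 and −0.01 in KA+NAP minus KA, and 0.25 and −0.01 in NAP minus PBS, so its place in each order below rests on 1 probe set. In KA+NAP minus KA the lowest were Hsd17b7 at −0.47 and Tm7sf2, a sterol C14-reductase, at −0.42, and the highest were Sc5d at 0.54 and Pmvk at 0.30. In KA+NAP minus NAP the highest were Sc5d at 0.40 and Msmo1 at 0.36, and the lowest Nsdhl, a sterol dehydrogenase, at −0.48 and Tm7sf2 at −0.41. In NAP minus PBS the lowest were Sc5d at −0.47 and Acat2 at −0.46, and the highest were Ebp, the sterol isomerase, at 0.20 and Hsd17b7 at 0.15, whose dimmer probe set was at −0.29.

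**Figure D3:**
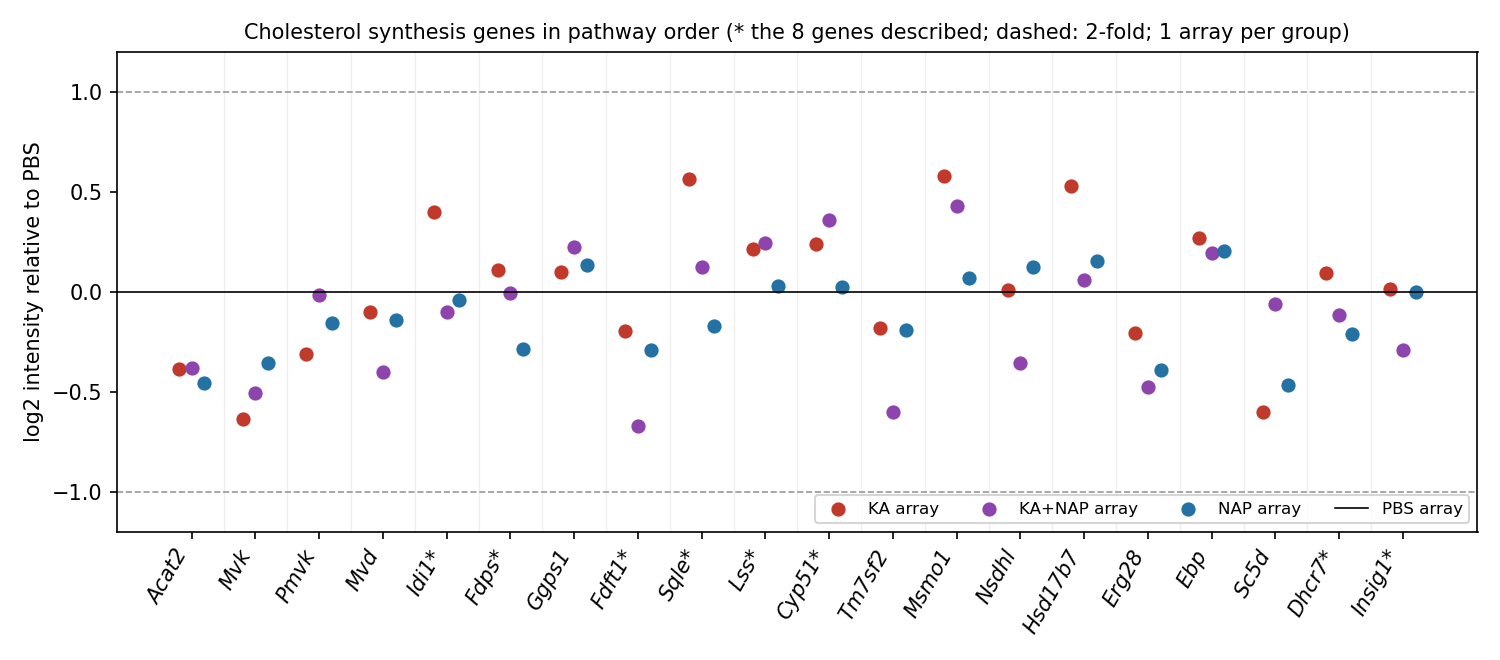
Log2 intensity of 20 cholesterol synthesis genes past the filter (x axis, in pathway order with Insig1 last) on the KA, KA+NAP and NAP arrays relative to the PBS array, 1 array per group; asterisks mark the 8 genes described and dashed lines 2-fold. Ggps1, placed after Fdps, belongs to the isoprenoid branch. KA values run from −0.64 (Mvk) to 0.58 (Msmo1), and no point reaches 2-fold.

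The genes that control SREBP were read in the same way. Of 12 listed, 11 had a named probe set and 10 passed the filter. Their medians were −0.11 in KA minus PBS with 3 above 0, −0.08 in KA+NAP minus NAP with 3, −0.08 in KA+NAP minus KA with 4 and −0.08 in NAP minus PBS with 4, and none was at 2-fold. Srebf2, the main driver of the pathway, read 854 with PBS, 659 with KA, 868 with KA+NAP and 738 with NAP. It was therefore lowest on the KA array, where 5 of the 8 genes were highest. Of the 8, only Idi1 and Sqle differed between KA and PBS by more than the median gap between probe sets, and a link to Srebf2 was not tested. Srebf1, the relative of Srebf2 with more weight on fatty acid synthesis, read 251, 172, 222 and 231, and a dimmer probe set was also lowest with KA. Scap, the escort of both, read 782, 651, 657 and 761. The second probe sets of Srebf2 (3, 7, 3 and 2) and Scap (17, 35, 31 and 35) were below the filter and were not lowest with KA. Insig2, the other Insig protein, read 886, 770, 552 and 900. It was lowest on the KA+NAP array, as was Insig1, with a difference of −0.47 in KA+NAP minus KA, and its dimmer probe set was at −0.99.

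Other SREBP targets, in lipid uptake and fatty acid synthesis, numbered 13 with a value of 16 listed. Their medians were −0.17 in KA minus PBS with 3 of 13 above 0, 0.01 in KA+NAP minus NAP with 7, 0.15 in KA+NAP minus KA with 8 and −0.11 in NAP minus PBS with 4. In KA minus PBS, Fads2, the delta-6 desaturase, was lowest at −0.69 and Scd, a stearoyl-CoA desaturase, next at −0.54. Tmem97, the sigma-2 receptor and a sterol-regulated protein, was the 1 gene at 2-fold, at 1.04 in KA+NAP minus NAP (232 and 489), and its dimmer probe set was at 0.10. Stard4, a sterol carrier, read 222 with PBS, 231 with KA, 177 with KA+NAP and 160 with NAP. Its dimmer probe sets read 76, 73, 70 and 78, and 29, 41, 34 and 55. Both were highest on the NAP array, where the brightest was lowest, so no order of the arrays is given for Stard4.

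The isoprenoid branch, which uses the product of Fdps for protein prenylation, dolichol and ubiquinone, had 9 of 11 listed genes past the filter. Its medians were 0.10 in KA minus PBS with 6 of 9 above 0, 0.09 in KA+NAP minus NAP with 5, 0.03 in KA+NAP minus KA with 5 and 0.10 in NAP minus PBS with 7, and none was at 2-fold. The highest in KA minus PBS were Pggt1b, a subunit of a protein prenyltransferase, at 0.48 and Nus1, a subunit of the dolichol-making cis-prenyltransferase, at 0.44, and they were also the highest in KA+NAP minus NAP, at 0.42 and 0.43. Other probe sets differed from these: the second of Pggt1b was at 0.33 and 0.00, and the second of Nus1, with 729 on the PBS array where the first had 914, at −0.17 and −0.07. The third of Nus1 was at 0.45 and 0.28.

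Genes of sterol turnover and efflux ranged from −0.80 to 2.46 in KA minus PBS, where the 8 genes ranged from −0.19 to 0.56. Of 12 listed, 11 passed the filter, with medians of −0.34 in KA minus PBS (3 above 0), −0.19 in KA+NAP minus NAP (3), 0.03 in KA+NAP minus KA (6) and 0.11 in NAP minus PBS (6). Ch25h, which makes 25-hydroxycholesterol, an oxysterol that suppresses SREBP processing, read 56 with PBS, 353 with KA, 339 with KA+NAP and 113 with NAP. It was at 2.46 in KA minus PBS and 1.50 in KA+NAP minus NAP, at 2-fold in both. Cyp46a1, the neuronal 24-hydroxylase, read 424, 243, 268 and 464, with both arrays with kainic acid below both without. Cyp27a1, a mitochondrial sterol hydroxylase, read 207, 119, 69 and 207 and was at −1.46 in KA+NAP minus NAP. Cyp7b1, the oxysterol 7-alpha-hydroxylase, read 119, 64, 64 and 111. The brightest probe set of Abca1, a cholesterol exporter, read 110 with PBS and between 550 and 629 on the other arrays, which gave 2.41 in KA minus PBS and also in NAP minus PBS. Its other probe sets past the filter were at −0.04 and −0.11 in KA minus PBS, so the Abca1 value rests on 1 probe set.

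**Figure D4:**
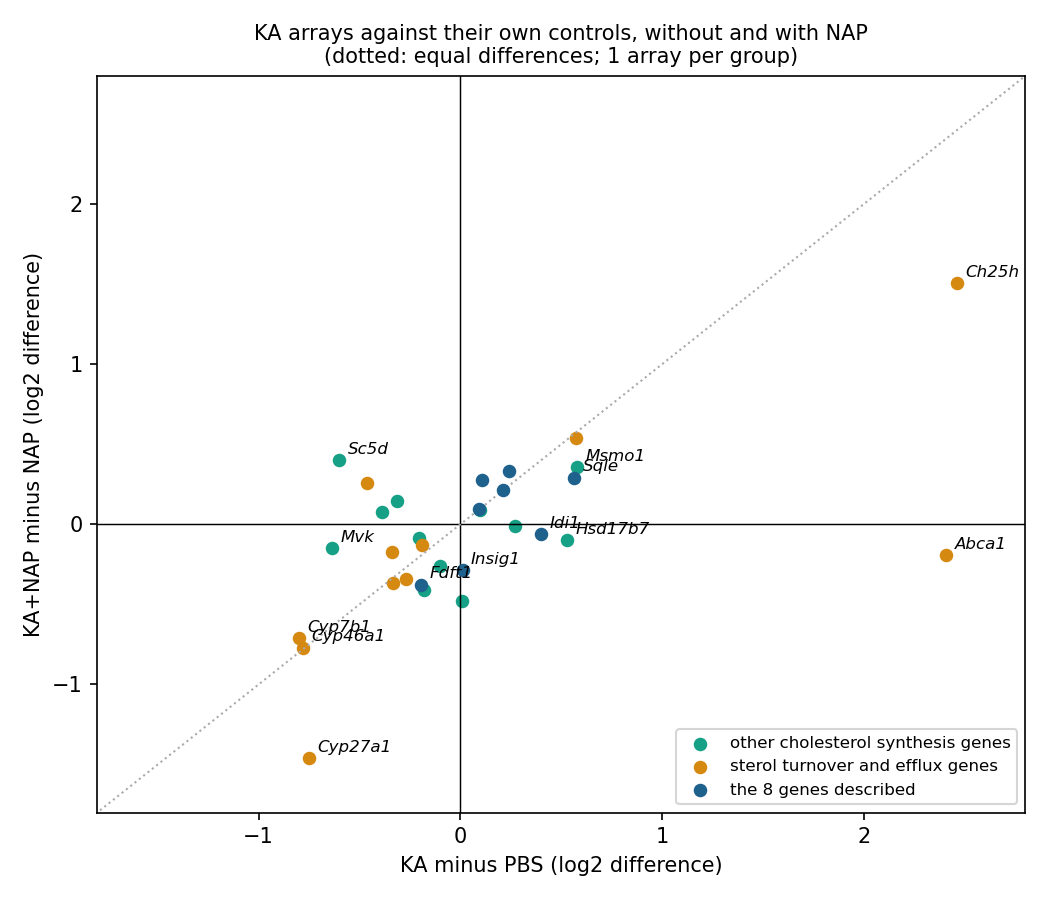
KA minus PBS (x axis) against KA+NAP minus NAP (y axis), both log2 differences between single arrays and with no array in common, for the 8 genes described, 12 other cholesterol synthesis genes and 11 sterol turnover and efflux genes past the filter. The synthesis genes lie within 0.64 of 0 on both axes, and Ch25h lies at 2.46 and 1.50.

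The 9 lists of cell markers held these values, and no marker on them was at 0 on any array. In KA minus PBS the medians were −0.54 for 10 astrocyte markers, −0.13 for 9 oligodendrocyte, −0.43 for 10 neuron, −0.56 for 6 CA3 pyramidal neuron, 0.10 for 9 microglia and macrophage, −0.35 for 5 endothelial, −0.24 for 6 meningeal and fibroblast and 2.45 for 3 blood markers past the filter, and 0.35 for the 1 choroid plexus marker, Ttr. The microglia and macrophage median hides differences in both directions. In KA minus PBS 3 of these 9 were at least 2-fold higher (Ptprc at 1.41, Cd68 at 1.30 and Tyrobp at 1.14), against 4.91% of all genes. At least 2-fold lower were 2 (P2ry12 at −2.16 and Tmem119 at −1.55), against 2.39%. The summed intensity of the 10 microglia and macrophage markers ran from 1813 on the KA array to 3370 on the KA+NAP array. P2ry12 alone read 1071 with PBS and 232 with KA. The summed intensity of the 4 blood markers ran from 37 on the PBS array to 2061 on the KA+NAP array. Hbb alone read 5 with PBS, 186 with KA, 1549 with KA+NAP and 1430 with NAP.

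The median profile of the 8 genes, each centred on its own mean, was −0.01 on the PBS array, 0.12 on KA, −0.03 on KA+NAP and −0.12 on NAP. The 5 other genes nearest to it by root mean square distance over the 4 arrays were C7h22orf23, Pdk3, Acin1, Scly and Rab5a, at distances from 0.017 to 0.021. Dhcr7 was the member nearest to the profile at 0.043, with 69 other genes nearer still, and Fdft1 the farthest at 0.236, with 5194 nearer. A profile this flat is shared by many genes.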

How the data were processed

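The members and all gene lists were chosen with earlier results of these data known. Per the labels' protocols, biotin-labelled cRNA was made from 500 ng of total RNA in 2 amplification cycles and read on Affymetrix arrays. Per the submitters' processing notes, the authors computed the deposited intensity values with MAS5; for its version and settings, the sources used here give nothing, and detection calls were not used here. The mean after trimming 2% at each end was 250.1 on every array. Of 31099 probe sets, 20826 had 1 gene symbol in the platform annotation, 436 had several and were not named, 57 were controls and 9780 were not listed. Of those with 1 symbol, 20758 matched the GRCr8 gene table by Entrez identifier. Some listed genes are not reported here. The pseudocount was 10, and 20.7% of deposited values were 10 or less. Named were the 9 members, the measured genes of 5 pathway lists and 9 marker lists as the highest and lowest 2 of a list or where a count is small, and a fixed set of SREBP genes; Stard4 was added after its values were seen. With 1 array per group, limma could not be fitted, so differences carry no p-value, and the number of arrays limits the precision. The counting code was tested on simulated data. Python 3.11.15, numpy 2.4.6, pandas 2.3.3 and matplotlib 3.10.9 were used.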

Additional observations from a re-analysis of the deposited data

Results flagged for a closer look

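Idi1 and Insig1 had KA differences on opposite sides of 0 without and with the peptide, and this contrast was not tested, since each group had 1 array. For Idi1 the second difference less the first was −0.46 (0.40 without and −0.06 with NAP). For Insig1 it was −0.30 (0.01 and −0.29). Neither held under every setting: with the second brightest probe set Idi1 was at 0.03 in KA+NAP minus NAP, above 0 in both, and with median centring Insig1 was at −0.05 in KA minus PBS, below 0 in both.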

How the results depend on the processing

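No paired analysis was possible because each group had 1 array, and for the same reason no replicate could be left out. Of 323 differences of single genes recomputed under the alternatives, 312 moved by less than the median gap between probe sets and 11 by more, most of them Lss values. Part of the 312 could not move. A change of filter leaves the value of a single gene as it was. The mean over probe sets and the second brightest probe set change nothing for Fdps, Sqle, Dhcr7 and Insig1, which had 1 probe set each. The 312 are therefore no measure of stability. The medians of the 8 genes kept their sign under all 8 alternatives (9 for KA minus PBS): 0.10 to 0.26 in KA minus PBS, 0.04 to 0.16 in KA+NAP minus NAP, −0.32 to −0.24 in KA+NAP minus KA, −0.17 to −0.10 in NAP minus PBS, and −0.18 to −0.08 for the difference between the KA effects. In KA minus PBS the number of genes above 0 went from 7 to 6 with median centring and to 8 with the NAP array as the control. In KA+NAP minus NAP it went from 5 to 4 with the mean over probe sets. With the filter at the 75th percentile, which left out Lss, it was 6 of 7 and 4 of 7 in these 2 comparisons. The number of genes above 0 in KA+NAP minus KA went from 2 to 1 with the filter at the 75th percentile, median centring, quantile normalization, the mean over probe sets or the second brightest probe set. In NAP minus PBS it went from 2 to 1 with that filter, quantile normalization, the mean over probe sets or the second brightest probe set, and to 0 with median centring. With the second brightest probe set, 1 gene (Lss) was at least 2-fold lower in the difference between the KA effects. Over all genes, 693 were 2-fold apart in KA minus PBS, 766 in KA+NAP minus NAP, 201 in KA+NAP minus KA, 123 in NAP minus PBS and 334 in the difference between the KA effects. In that order they numbered 435, 477, 105, 56 and 178 with a pseudocount of 50, 1202, 1335, 564, 458 and 1087 with no filter, which tests more genes, and 296, 295, 56, 42 and 117 with the filter at the 75th percentile, which tests fewer. With the second brightest probe set they were 233 in NAP minus PBS and 650 in the difference between the KA effects. Other causes were not tested. Lss was the dimmest of the 8, with a mean intensity of 155.75, and signal over background was not examined.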
